A study of Homo sapiens with 12 samples.

Results

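The genes described here are the YAP-TEAD set, 10 of the 25702 genes in the count table, chosen by gene symbol. They are the co-activators YAP1 and WWTR1 (the gene of TAZ), the DNA-binding partner TEAD1, the pathway's own inhibitors LATS2 and AMOTL2, and the genes CTGF, CYR61, ANKRD1, AXL and NUAK2, which are widely used as readouts of YAP and TAZ. Of these, 9 were listed in the deposited log2 table and were tested, while ANKRD1 was found only in the counts, through its Entrez identifier 27063, and lay below the filter on low counts.

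In the Hippo pathway the MST kinases activate the LATS kinases, and LATS phosphorylates YAP and TAZ, which are then held in the cytoplasm or degraded. When the kinases are inactive, YAP and TAZ enter the nucleus and bind TEAD proteins, and the resulting transcription includes the matricellular genes CTGF and CYR61 and the inhibitors LATS2 and AMOTL2, so that part of the output feeds back on the pathway. In fibroblasts the pathway is known for responding to stiffness and cell spreading, and several of its targets, CTGF among them, are also direct targets of TGF-β signalling through SMAD proteins. mRNA levels do not report the phosphorylation or location of YAP and TAZ.

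The cells were WI-38, an established line of normal human lung fibroblasts, and the cytokine was TGF-β, which turns fibroblasts into contractile, matrix-secreting myofibroblasts. There were 4 groups of 3 flasks: untreated cells at day 1 (D1), cells treated with TGF-β for a day (D1+ TGF-β), untreated cells at day 20 (D20), and cells kept in TGF-β until day 20 (D20+ TGF-β). The D1 groups were at passages 2 to 3 and the D20 groups at passages 5 to 6. The day 20 flasks had been reseeded at day 1 from 1 untreated and 1 treated flask, so those of a group share 1 parent. Per the study's methods, flasks were confluent when treatment began, and the reseeded flasks were set up to be nearly confluent at day 20. Day, passage, reseeding and any difference in cell density cannot be told apart. Unless stated, p-values come from 1 fit over all 12 libraries. Those at day 20 thus also depend on the spread of the day 1 flasks. None covers the spread between parent flasks at day 20.

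Total counts lay between 8674488 and 18286197 per library. Every library differed from the others of its group by more than sampling noise, and 2 libraries stood apart: D1 replicate 2 and D20+ TGF-β replicate 3 had 110 and 116 genes more than 1 log2 unit from the mean of the other flasks of their group, against at most 17 in any other library. The fibroblast markers (COL1A1, VIM, DCN and others) summed to between 13652 and 23171 cpm, that is, counts relative to the depth of each library. Epithelial markers summed to at most 0.596 cpm and endothelial markers to at most 1.71 cpm in any library. The leukocyte list summed to 38.6 to 62.8 cpm, nearly all of it CD68, a lysosomal gene, at group means of 40.4 to 56.8 cpm. In that list CD3E had no count, PTPRC had at most 2 reads, and CD14 had a mean of 5.88 cpm at D20, against means of 0.0584 to 0.348 cpm in the other groups. Its part in any result was not tested. The proliferation genes MKI67, TOP2A, CCNB1, CDK1, BUB1 and AURKB summed to 662 to 1052 cpm at D1, with replicate 2 highest, and to 730 to 819 cpm at D1+ TGF-β. In the D20 flasks their sum was 110.5 to 136 cpm, and at D20+ TGF-β it was 248 to 417 cpm, with replicate 3 highest. In bulk RNA, fewer cells expressing a gene and less of its RNA per cell cannot be told apart.

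The promoters of CTGF and ANKRD1 are shown because both genes were highest at D1+ TGF-β and both windows hold more than 1 copy of GGAATG, the core of the TEAD binding motif. The windows are the 250 bases before the transcription start, 5′ to 3′ on the gene's strand, from RefSeq on GRCh38.p14, with each GGAATG in capitals. The CTGF window lies at chr6:131951373-131951622 (− strand) and the ANKRD1 window at chr10:90921088-90921337 (− strand).
CTGF: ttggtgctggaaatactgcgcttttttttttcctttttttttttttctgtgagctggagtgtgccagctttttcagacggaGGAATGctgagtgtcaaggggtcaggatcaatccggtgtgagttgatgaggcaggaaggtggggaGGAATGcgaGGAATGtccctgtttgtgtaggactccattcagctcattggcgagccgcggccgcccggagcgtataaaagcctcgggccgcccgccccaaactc
ANKRD1: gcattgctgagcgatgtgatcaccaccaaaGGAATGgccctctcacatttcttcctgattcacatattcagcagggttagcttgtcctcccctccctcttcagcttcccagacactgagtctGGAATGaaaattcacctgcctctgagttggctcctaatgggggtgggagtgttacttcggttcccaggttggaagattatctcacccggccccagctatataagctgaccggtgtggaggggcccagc

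The copies in the CTGF window began 169, 104 and 95 bases before the start, and those in the ANKRD1 window 220 and 128 bases before it. The search covered both strands. Among 35116 promoter windows of the same length, 11.9% held at least 1 copy of GGAATG, 0.940% at least 2 and 0.0826% at least 3. RefSeq windows were matched for 8 of the 10 genes, all but CYR61 and TEAD1. NUAK2 had 2 copies, YAP1 had 1, AMOTL2 and AXL had 1 in 1 of their 2 windows, and the windows of LATS2 and WWTR1 had none. The pattern TGANTCA, looser than the AP-1 motif, which has C or G at its centre, was present in 6.57% of all windows. Among the members' windows it was found only in that of ANKRD1, as TGATTCA, which is not the AP-1 motif. The CArG box, present in 1.16% of all windows, was found in none of the members' windows. A match is a description of the letters and not evidence of binding.

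**Figure D1:**
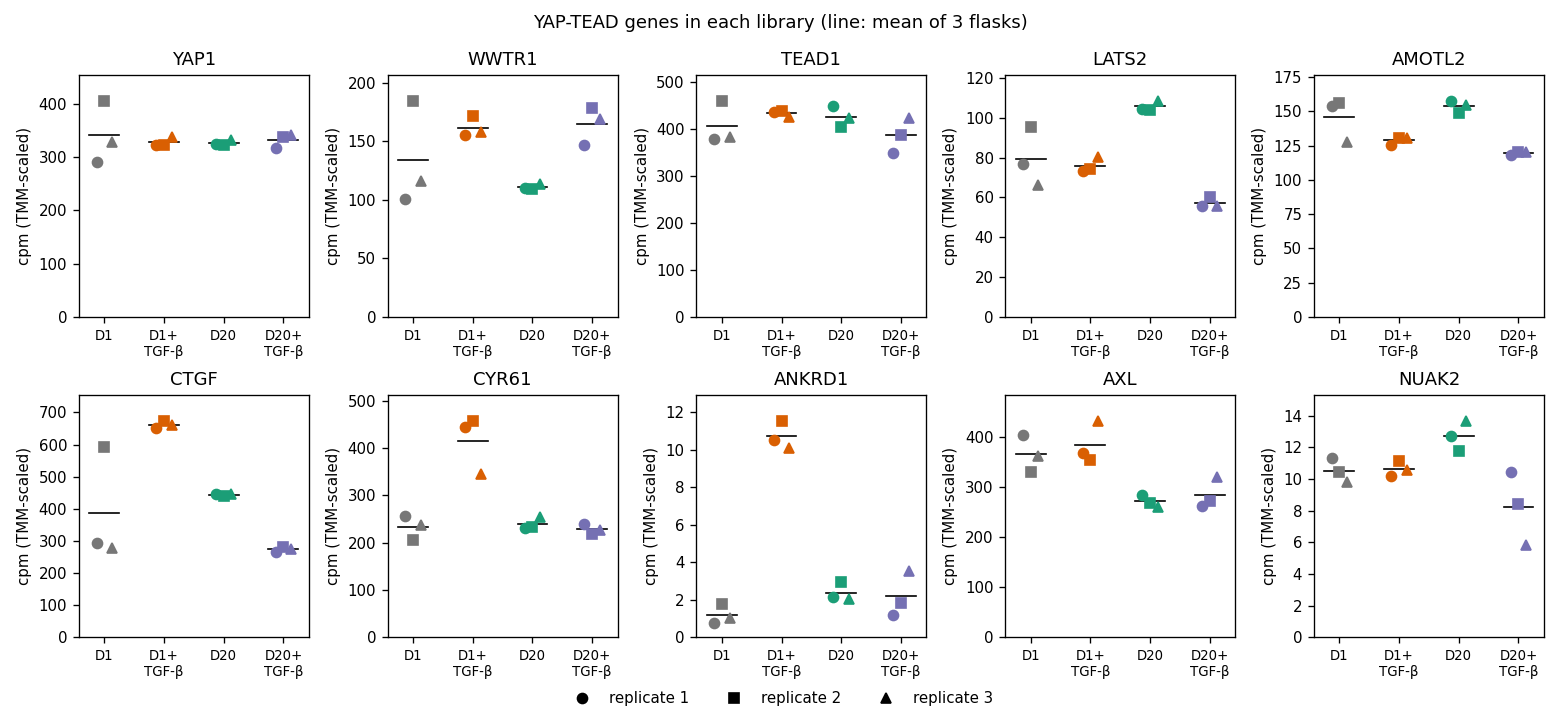
Level of each YAP-TEAD gene in the 12 libraries, as TMM-scaled cpm on a linear axis from 0, by group, with symbols for replicates and a line at the mean of 3 flasks. CTGF, CYR61 and ANKRD1 were highest at D1+ TGF-β, LATS2 was lowest at D20+ TGF-β (55.5 to 60.2 cpm), and D1 replicate 2 stood above its group for CTGF (592 cpm) and WWTR1 (185 cpm).

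The genes covered a wide range of levels. Per kilobase of exon at D1, CTGF had a mean of 166 cpm, followed by AXL with 71.1, CYR61 with 63.2 and YAP1 with 54.2 cpm. TEAD1 had 38.1, AMOTL2 22.5, WWTR1 16.0 and LATS2 14.1 cpm per kilobase. NUAK2, with 3.10, and ANKRD1, with 0.668 cpm per kilobase, were the least abundant. At D1+ TGF-β the per-kilobase mean of CYR61, at 112 cpm, lay above that of AXL, at 74.9 cpm. The length used was the union of all exons GENCODE lists for a gene, which can be longer than its mRNA. For CYR61 it was 3698 bases, nearly the whole gene from 86046444 to 86050272. The place of CYR61 in the order at D1 thus depends on that length. All other levels below are cpm per gene, scaled by TMM unless stated and not corrected for length, and a gene is said to have risen or fallen only at a Benjamini-Hochberg adjusted p under 0.01.

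YAP1, on chromosome 11 (GRCh37 101981178 to 102104155, + strand), had near-equal mRNA in all groups. Its level was 292, 406 and 328 cpm in the D1 flasks and 323, 324 and 338 cpm at D1+ TGF-β. It was 325, 322 and 333 cpm at D20 and 317, 337 and 341 cpm at D20+ TGF-β. The groups overlapped in every comparison, and D1 replicate 2 was the highest of the 12 libraries. The log2 fold change was −0.06 (SE 0.10) with TGF-β at D1 and 0.02 (SE 0.10) at D20. Over time it was 0.02 (SE 0.10) with and −0.07 (SE 0.10) without TGF-β, and the response difference was 0.08 (SE 0.14). YAP1 did not pass the test in any of the 5 comparisons or under any alternative (lowest adjusted p 0.115).

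WWTR1 encodes TAZ, the paralogue of YAP, and lies on chromosome 3 (149235022 to 149454501, − strand), where a long antisense transcript, WWTR1-AS1, overlaps it. It measured 101, 185 and 116 cpm at D1 and 155, 171 and 158 cpm at D1+ TGF-β. It measured 110.1, 109 and 114 cpm at D20 and 147, 179 and 169.5 cpm at D20+ TGF-β. At D20 every treated flask lay above every untreated one, and at D1 this held for all D1 flasks except replicate 2. With TGF-β the log2 fold change was 0.57 (SE 0.17) at D20, with an adjusted p of 0.0139 by edgeR's quasi-likelihood test, and 0.27 (SE 0.16, adjusted p 0.254) at D1. Without D1 replicate 2 the differences were 0.59 at D20 (adjusted p 4.92e-05) and 0.59 at D1 (adjusted p 3.48e-04). The D20 difference also passed without D1 replicate 1 (0.57, adjusted p 0.00497) and in 8 of 21 alternatives in all. The response at D20 minus that at D1 was 0.30 (SE 0.23, adjusted p 0.388). Over time WWTR1 differed by 0.03 (SE 0.16, adjusted p 0.904) with and by −0.27 (SE 0.17, adjusted p 0.185) without TGF-β.

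The ratio of WWTR1 to YAP1 counts within a library does not depend on how libraries are scaled. It was 0.345, 0.455 and 0.354 at D1 and 0.480, 0.530 and 0.467 at D1+ TGF-β. At D20 it was 0.339, 0.339 and 0.341, and at D20+ TGF-β it was 0.463, 0.530 and 0.497. Every treated flask had a higher ratio than every untreated flask of its day, by a mean log2 difference of 0.37 at D1 and 0.54 at D20. Each difference had an exact two-sided permutation p of 0.1, the smallest that 3 against 3 flasks allow. Ratios of AMOTL2 to AMOTL1 and of CTGF to CYR61 were formed in the same way. With TGF-β the AMOTL2 to AMOTL1 ratio differed by log2 0.09 at D1 and 0.18 at D20 (permutation p 0.1 and 0.2). The CTGF to CYR61 ratio differed by 0.04 at D1, where the groups overlapped, and by −0.63 at D20 (permutation p 0.1).

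TEAD1, on chromosome 11 (12695968 to 12966284, + strand), encodes a TEAD factor that carries YAP and TAZ to DNA. Its level was 378, 460.5 and 383 cpm at D1 and 437, 438 and 426 cpm at D1+ TGF-β. It was 449, 404 and 424 cpm at D20 and 350.0, 389 and 423 cpm at D20+ TGF-β. Only D1+ TGF-β and D20+ TGF-β did not overlap. The log2 fold change between them was −0.16 (SE 0.09, adjusted p 0.152). With TGF-β it was 0.09 (SE 0.09) at D1 and −0.14 (SE 0.09) at D20, with a difference of responses of −0.23, and over time without TGF-β it was 0.06 (SE 0.09). TEAD1 passed the test in none of the 5 comparisons.

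LATS2, the kinase that phosphorylates YAP and TAZ and is itself a YAP target, fell with TGF-β at D20 and not at D1. It lies on chromosome 13 (21547175 to 21635725, − strand), with the antisense gene LATS2-AS1 on the other strand. Its level was 76.7, 95.3 and 66.0 cpm at D1 and 73.3, 74.2 and 80.2 cpm at D1+ TGF-β. It was 105, 104 and 109 cpm at D20 and 55.6, 60.2 and 55.5 cpm at D20+ TGF-β. The D20 flasks were the highest of all 12 and the D20+ TGF-β flasks the lowest, while the D1 groups overlapped. The log2 fold change with TGF-β was −0.07 (SE 0.10, adjusted p 0.681) at D1 and −0.89 (SE 0.11, adjusted p 2.09e-05) at D20, a fall of 1.85 times that passed the test in 21 of 21 alternatives. The response at D20 was lower than at D1 by a log2 difference of −0.82 (SE 0.15, adjusted p 0.00187), which passed in 20 of 20 alternatives.

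Without TGF-β, LATS2 rose from D1 to D20 by 0.41 log2 units (SE 0.10, adjusted p 0.00467), and with TGF-β it fell by 0.41 (SE 0.11, adjusted p 0.00601). Both calls were near the threshold. The rise was lost when any of 5 libraries was left out, namely D1 replicate 1 or 3 or any D20 replicate (adjusted p 0.0127 to 0.0204). The fall was lost without any of 7, namely each D1+ TGF-β and D20+ TGF-β replicate and D20 replicate 1 (adjusted p 0.0103 to 0.0270). The ratio of LATS2 to LATS1 counts was 2.99, 3.18 and 2.92 at D1 and 2.32, 2.45 and 2.87 at D1+ TGF-β. It was 3.68, 4.67 and 4.06 at D20 and 1.86, 2.14 and 1.81 at D20+ TGF-β. The ratio was thus lower in every treated flask than in every untreated one at both days, by mean log2 differences of −0.25 at D1 and −1.09 at D20 (exact two-sided permutation p 0.1 for each, the smallest possible). At D1 neither gene passed with TGF-β. The mean of LATS1 was 26.1 cpm at D1 and 29.9 cpm at D1+ TGF-β, and that of LATS2 79.3 and 75.9 cpm.

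**Figure D2:**
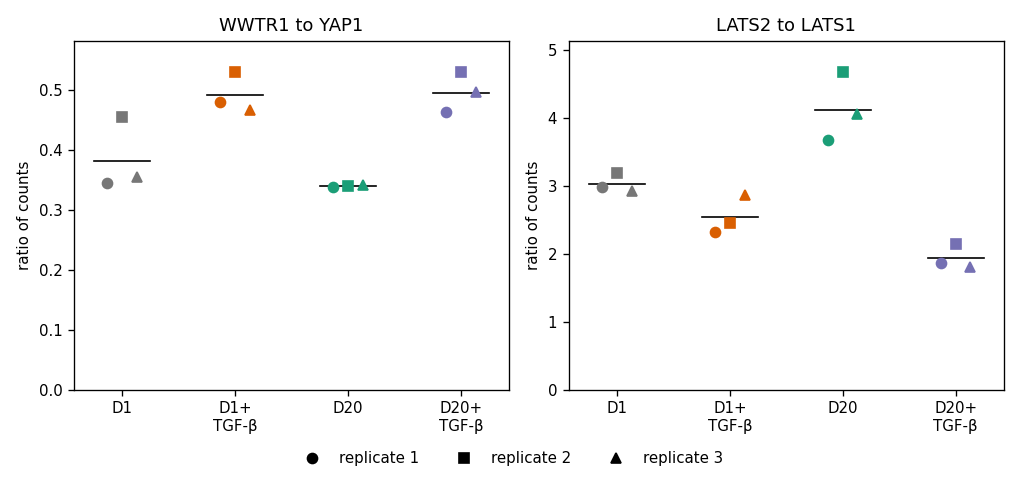
Ratio of WWTR1 to YAP1 counts and of LATS2 to LATS1 counts in each library, by group, on linear axes from 0, with symbols for replicates and a line at the geometric mean of 3 flasks. At D20 the WWTR1 to YAP1 ratio was 0.339 to 0.341 without and 0.463 to 0.530 with TGF-β, and the LATS2 to LATS1 ratio 3.68 to 4.67 without and 1.81 to 2.14 with it.

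AMOTL2, an angiomotin family protein that holds YAP at junctions and the cytoskeleton, fell with TGF-β at D20. The gene lies on chromosome 3 (134074189 to 134094321, − strand). Its level was 154, 156 and 128 cpm at D1 and 126, 131 and 131 cpm at D1+ TGF-β. It was 158, 149 and 155 cpm at D20 and 118, 120.4 and 121 cpm at D20+ TGF-β. The D20 groups did not overlap, and at D1 replicate 3 of the untreated flasks lay among the treated ones. The fall at D20 was −0.36 on the log2 scale (SE 0.08, adjusted p 0.00180), and it missed the threshold without D20 replicate 1 (−0.33, adjusted p 0.0115) or D20+ TGF-β replicate 1 (−0.34, adjusted p 0.0109). At D1 the difference was −0.18 (SE 0.08, adjusted p 0.104), and it passed without D1 replicate 3 (−0.26, adjusted p 0.00706). AMOTL2 did not pass over time, with values of −0.11 (SE 0.08) with and 0.08 (SE 0.07) without TGF-β, and its response difference was −0.18 (SE 0.11, adjusted p 0.240).

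CTGF (current symbol CCN2) encodes a secreted matricellular protein that promotes matrix deposition, and lies on chromosome 6 (132269316 to 132272512, − strand), where the long non-coding gene LINC01013 overlaps it on the other strand. Its level was 294, 592 and 277 cpm at D1 and 652, 673 and 661 cpm at D1+ TGF-β. It was 446, 441 and 447 cpm at D20 and 267, 280.3 and 276 cpm at D20+ TGF-β. The treated flasks were thus above all untreated flasks at D1 and below all untreated flasks at D20, and D1 replicate 2 lay close to the treated D1 flasks. Before TMM scaling its 4 sequencing lanes gave 580.1 to 614 cpm, against 284 to 312 and 274 to 294 cpm in replicates 1 and 3, so the difference lay between flasks or libraries and not between lanes.

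With all 12 libraries the CTGF response to TGF-β was 0.77 (SE 0.21, adjusted p 0.0151) at D1 and −0.70 (SE 0.21, adjusted p 0.0156) at D20 on the log2 scale, and neither passed the threshold. The D1 response passed in 6 of 21 alternatives, among them limma-voom on the 12 libraries (0.87, adjusted p 0.00697), limma on the deposited values (0.87, adjusted p 0.00614) and no gene filter (0.75, adjusted p 0.00187). With the replicate block its adjusted p was 0.00947. The D20 response passed in 5 of 21, among them the fit on its own 6 libraries (−0.69, adjusted p 3.27e-05) and no gene filter (−0.68, adjusted p 0.00252). The difference between these responses was −1.47 (SE 0.29, adjusted p 0.00329), and CTGF fell over time with TGF-β by 2.41 times (log2 −1.27, SE 0.21, adjusted p 2.57e-04), a fall that passed in 21 of 21 alternatives. Without D1 replicate 2 the response was 1.22 at D1 (SE 0.06, adjusted p 2.98e-08) and −0.68 at D20 (SE 0.05, adjusted p 3.84e-07), and the difference between them −1.90 (SE 0.08, adjusted p 3.83e-08). The D20 response also passed without D1 replicate 3 (−0.70, adjusted p 0.00752), and the response difference missed the threshold without D1+ TGF-β replicate 2 (−1.45, adjusted p 0.0106). From D1 to D20 without TGF-β the change was 0.20 (SE 0.21, adjusted p 0.447) with all libraries and 0.62 (SE 0.06, adjusted p 2.37e-06) without D1 replicate 2.

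CYR61 (current symbol CCN1), the closest relative of CTGF in this set and likewise a secreted matricellular protein, rose with TGF-β at D1, and its response at D20 was lower. The gene lies on chromosome 1 (86046444 to 86050272, + strand). Its level was 257, 207 and 238 cpm at D1 and 445, 457 and 345 cpm at D1+ TGF-β. It was 230.3, 234 and 255 cpm at D20 and 241, 219.6 and 226 cpm at D20+ TGF-β. The D1+ TGF-β flasks stood above all 9 others, which overlapped among themselves. The rise at D1 was 1.78-fold (log2 0.83, SE 0.11, adjusted p 1.06e-04), and the D20 value was −0.07 (SE 0.11, adjusted p 0.646). The response difference was −0.90 (SE 0.15, adjusted p 0.00122) and the fall over time with TGF-β was −0.86 (SE 0.11, adjusted p 3.36e-05). The rise and both of these negative differences passed in every alternative run. Over time without TGF-β the value was 0.04 (SE 0.11, adjusted p 0.797).

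ANKRD1, a nuclear and sarcomeric ankyrin repeat protein whose gene is a sensitive YAP target, was scarce. The gene lies on chromosome 10 (92671853 to 92680844, − strand). It had 9, 27 and 12 reads at D1, or 0.773, 1.79 and 1.02 cpm, and 89, 203 and 85 reads at D1+ TGF-β, or 10.5, 11.5 and 10.1 cpm. At D20 its level was 2.13, 2.96 and 2.02 cpm, and at D20+ TGF-β it was 1.20, 1.85 and 3.54 cpm. Only the D1+ TGF-β flasks exceeded 10 cpm, so ANKRD1 did not reach 10 cpm in 6 libraries and was not part of the 9490 genes tested. In the fit without that filter, over 20434 genes, ANKRD1 rose 8.55-fold with TGF-β at D1 (log2 3.10, SE 0.28, adjusted p 7.68e-09), the D20 value was −0.17 (SE 0.31, adjusted p 0.775), and the difference of responses was −3.26 (SE 0.43, adjusted p 5.60e-06). Over time with TGF-β it fell by 2.41 log2 units (SE 0.27, adjusted p 9.06e-08), and from D1 to D20 the value was 0.85 (SE 0.33, adjusted p 0.0550). In that fit 8.3% of the genes passed with TGF-β at D1 and 17.1% at D20, 21.2% over time with TGF-β and 22% without it, and 6.43% for the response difference.

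AXL, a receptor tyrosine kinase for GAS6, fell with time in both arms and did not pass the test with TGF-β. The gene lies on chromosome 19 (41725128 to 41767671, + strand). Its level was 403, 331 and 361 cpm at D1 and 368, 354 and 431 cpm at D1+ TGF-β. It was 285, 268 and 261 cpm at D20 and 261, 271 and 321 cpm at D20+ TGF-β. All 6 day 20 flasks lay below all 6 day 1 flasks. The log2 fold change from D1 to D20 was −0.43 (SE 0.10, adjusted p 0.00330) without TGF-β and −0.43 (SE 0.10, adjusted p 0.00322) with it, and the difference of responses was −0.01 (SE 0.14, adjusted p 0.983). With TGF-β the value was 0.07 (SE 0.10) at D1 and 0.07 (SE 0.10) at D20. The fall without TGF-β was lost when D1 replicate 1 or D20 replicate 2 or 3 was left out (adjusted p 0.0149 to 0.0182), and the fall with TGF-β without D1+ TGF-β replicate 3 or D20+ TGF-β replicate 1 or 2 (adjusted p 0.0168 to 0.0205).

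NUAK2, an AMPK-related kinase that is both a YAP target and an inhibitor of LATS, fell with TGF-β at D20 in a call that lay at the threshold. The gene lies on chromosome 1 (205271191 to 205290873, − strand). Its level was 11.3, 10.4 and 9.79 cpm at D1 and 10.2, 11.1 and 10.5 cpm at D1+ TGF-β. It was 12.7, 11.8 and 13.6 cpm at D20 and 10.5, 8.43 and 5.83 cpm at D20+ TGF-β. Before TMM scaling, NUAK2 met the filter of 10 cpm in 6 libraries only with the untreated D20 flasks, its highest group, counted. The fall at D20 is measured from that same group. The D20 groups did not overlap, and D20+ TGF-β replicate 3, 1 of the libraries that stood apart, was the lowest of all. The fall was −0.60 (SE 0.16, adjusted p 0.00859). It was lost in 10 of the 12 fits that left out a library, all but those without D1 replicate 2 or D20+ TGF-β replicate 1 (adjusted p 0.0105 to 0.0411), and was −0.41 (adjusted p 0.0201) without D20+ TGF-β replicate 3. The D1 value was 0.02 (SE 0.16) and the response difference −0.62 (SE 0.23, adjusted p 0.0683). Over time NUAK2 had values of −0.34 (SE 0.16, adjusted p 0.102) with and 0.28 (SE 0.15, adjusted p 0.152) without TGF-β.

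**Figure D3:**
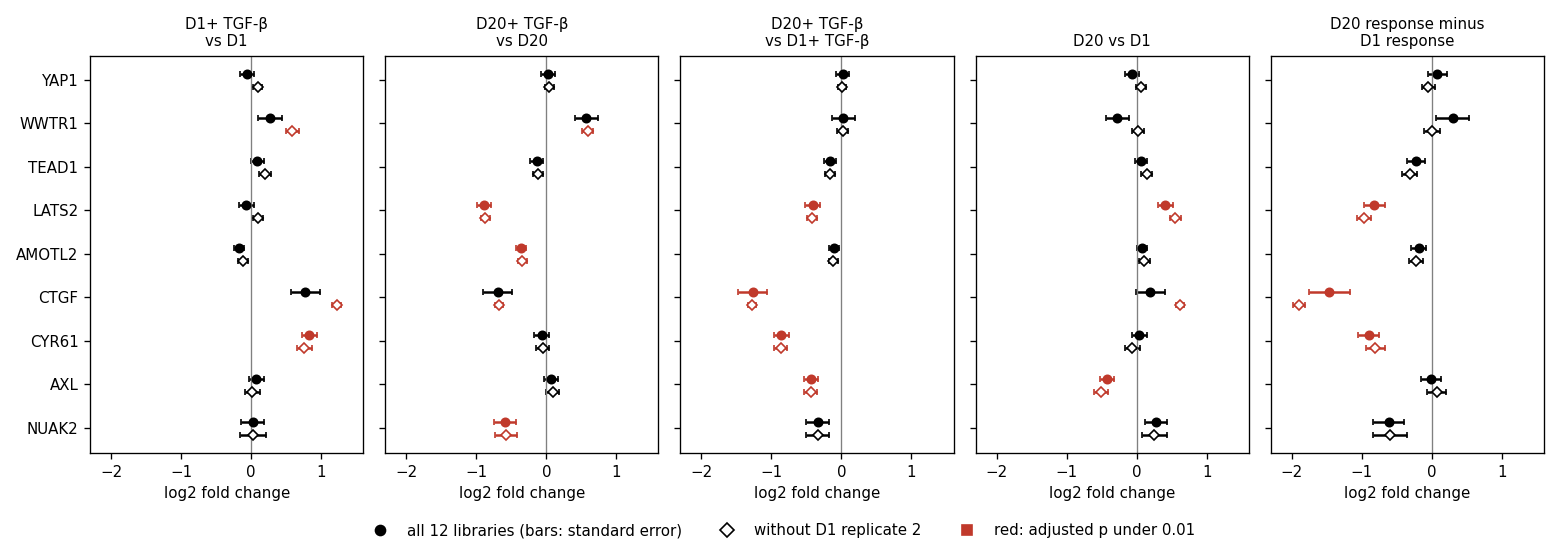
Log2 fold change of the 9 tested YAP-TEAD genes in the 5 comparisons, with bars of 1 standard error, for all 12 libraries (filled circles) and without D1 replicate 2 (open diamonds), in red where the adjusted p was under 0.01. The CTGF response at D1 was 0.77 with all libraries and 1.22 without D1 replicate 2, while YAP1 lay within 0.10 of 0 throughout.

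Read across the set, TGF-β at D1 raised 1 of the 9 genes tested (CYR61), where 13.4% of all 9490 genes passed (6.89% higher and 6.5% lower). At D20 it lowered 3 (LATS2, AMOTL2 and NUAK2), where 27.5% passed (12.8% higher and 14.7% lower). NUAK2 is kept in this and later D20 counts where it passed. It met the filter only with the untreated D20 flasks, from which its fall is measured. The call was lost in 10 of the 12 fits that left out a library. Over time with TGF-β, 4 fell (CTGF, CYR61, LATS2 and AXL) and none rose, where 34.8% of all genes passed (17.2% higher and 17.7% lower). From D1 to D20 without TGF-β, LATS2 rose and AXL fell, where 36.4% passed (18.9% higher and 17.6% lower). The response to TGF-β was lower at D20 than at D1 for 3 (CTGF, CYR61 and LATS2) and higher for none, where 10.4% of all genes passed (4.51% higher and 5.87% lower). Each of these comparisons shares libraries with others, so they are not independent of one another. In all, 6 of the 9 passed in at least 1 comparison (NUAK2 only in that D20 call), where 59.7% of all genes did, and YAP1, WWTR1 and TEAD1 passed in none.

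Without D1 replicate 2 the counts were 3 of 9 at D1 (CYR61, CTGF and WWTR1, all higher) against 19.8% of all genes, and 5 at D20 (WWTR1 higher and CTGF, LATS2, AMOTL2 and NUAK2 lower) against 34.6%. They were 4 with TGF-β over time against 42.3%, 3 without it against 42.2%, and 3 for the response difference against 18.2%. Without D20+ TGF-β replicate 3, the other library that stood apart, they were 1, 2, 3, 2 and 3 in the same order. In that fit 1499, 2269, 3361, 3650 and 1106 of the 9490 genes passed. The groups did not overlap for 2 of the 9 genes at D1, against 36.4% of all genes, and for 5 at D20, against 58.3%. With TGF-β over time they did not overlap for 6 of 9, against 63.2%, and without it for 3, against 55.6%. The median log2 fold change of the 9 genes was 0.07 at D1 and −0.14 at D20, −0.34 over time with TGF-β and 0.06 without, and −0.23 for the response difference, while the medians of all genes lay between −0.02 and 0.02.

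The sum of the proliferation genes was lower at day 20 than at day 1 in both arms. With TGF-β it went from 730 to 819 cpm at day 1 to 248 to 417 cpm at day 20. Without TGF-β it went from 662 to 1052 cpm to 110.5 to 136 cpm. CTGF, CYR61, LATS2 and AXL fell over time with TGF-β, while without it AXL fell, LATS2 rose and CTGF and CYR61 did not pass. The part of the proliferation genes in these differences over time was not tested. With TGF-β the sum was higher at D20 in every flask, where LATS2, AMOTL2 and NUAK2 fell.

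The other genes of the pathway were 22 upstream kinases, scaffolds, TEADs and VGLL cofactors, of which 20 were tested, all but WWC1 and TEAD4. At D1, 3 of the 20 rose with TGF-β (FRMD6, VGLL3 and TEAD3) and none fell, where 13.4% of all genes passed. At D20, where 27.5% passed, 4 rose (STK4, FRMD6, MAP4K4 and AMOT) and 3 fell (TAOK2, AMOTL1 and TEAD3). AMOT is in this count though it met the filter only with the D20+ TGF-β flasks, its highest group, counted. Over time, 3 fell with TGF-β (NF2, FRMD6 and TEAD3), where 34.8% passed, and without it 4 rose (TAOK3, AMOTL1, VGLL3 and TEAD3) and MAP4K4 fell, where 36.4% passed. The response was lower at D20 for 3 (FRMD6, VGLL3 and TEAD3), where 10.4% of all genes passed. LATS1, the LATS cofactors MOB1A and MOB1B, the scaffold SAV1, STK3, WWC2, WWC3, TAOK1, VGLL4 and TEAD2 did not pass in any comparison with all libraries. Without D1 replicate 2, MOB1B, SAV1, WWC2, WWC3, TAOK1 and VGLL4 each passed in at least 1 comparison, while LATS1, MOB1A, STK3 and TEAD2 did not. Leaving out 1 library moved the counts of the 20 that passed to 2 to 7 at D1 and 3 to 8 at D20. They moved to 2 to 7 and 3 to 10 over time with and without TGF-β, and 3 to 7 for the response difference. The highest counts were those without D1 replicate 2. The counts over all 9490 genes moved to 619 to 1875, 1795 to 3288, 2275 to 4018, 2470 to 4003 and 549 to 1731 in the same order. The D20 calls of STK4 and TAOK2 were lost in 4 and 5 of 12 such fits, and those of TAOK3 and MAP4K4 over time without TGF-β in 4 and 3.

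FRMD6, a FERM-domain protein that activates the Hippo kinases, had the largest response to TGF-β of this group. Its level was 269.9, 215 and 301 cpm at D1 and 756, 837 and 700.3 cpm at D1+ TGF-β. It was 309, 299 and 297 cpm at D20 and 413, 407 and 437 cpm at D20+ TGF-β. Treated flasks exceeded untreated ones on both days, by log2 1.55 (SE 0.11, adjusted p 4.17e-07) at D1 and 0.47 (SE 0.11, adjusted p 0.00292) at D20, and the response at D20 was smaller by −1.07 (SE 0.15, adjusted p 3.25e-04). The D20 call was lost without D20 replicate 2 or 3 (adjusted p 0.0137 to 0.0146).

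VGLL3, a cofactor that binds TEADs in place of YAP and TAZ, had 44.6, 64.7 and 49.7 cpm at D1 and 120.1, 118 and 107 cpm at D1+ TGF-β. It had 110.0, 109.8 and 125 cpm at D20 and 70.5, 87.4 and 95.6 cpm at D20+ TGF-β. The untreated D1 flasks were the lowest of all, and at D20 the treated flasks lay below the untreated ones. VGLL3 rose by log2 1.11 (SE 0.13, adjusted p 5.56e-05) with TGF-β at D1 and by 1.11 (SE 0.13, adjusted p 1.46e-05) from D1 to D20 without it, and its response difference was −1.56 (SE 0.19, adjusted p 1.05e-04). NF2, the tumour suppressor merlin, had 166, 110.5 and 143 cpm at D1 and 168, 168 and 164 cpm in the D1+ TGF-β flasks. It had 117, 109 and 107 cpm at D20 and 79.3, 84.0 and 102 cpm at D20+ TGF-β, the lowest group. It fell over time with TGF-β by log2 −0.92 (SE 0.13, adjusted p 6.75e-05). Its other differences did not pass: 0.25 (SE 0.12) with TGF-β at D1, −0.33 (SE 0.13) at D20, −0.33 (SE 0.12) over time without it and −0.58 (SE 0.18) for the response difference. The response difference passed without D1 replicate 1 or D20+ TGF-β replicate 3 (adjusted p 0.00702 to 0.00951), and the change over time without TGF-β passed without D1 replicate 2 (adjusted p 7.81e-04).

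AMOT, a relative of AMOTL2, had 11.3, 9.83 and 8.94 cpm at D1 and 11.1, 9.70 and 11.3 cpm at D1+ TGF-β. It had 7.95, 7.21 and 7.77 cpm at D20 and 10.98, 12.8 and 13.4 cpm at D20+ TGF-β, so that the untreated D20 flasks were the lowest. AMOT rose with TGF-β at D20 by log2 0.69 (SE 0.12, adjusted p 5.63e-04), opposite in sign to AMOTL2 and AMOTL1. Before TMM scaling it met the filter of 10 cpm in 6 libraries only with the D20+ TGF-β flasks, its highest group, counted. Its other differences did not pass: 0.08 (SE 0.12) at D1, 0.22 (SE 0.12) over time with TGF-β, −0.39 (SE 0.12) without it and 0.61 (SE 0.17) for the response difference.

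TEAD3 was the only pathway gene to pass in all 5 comparisons. It had 59.1, 56.6 and 50.7 cpm at D1 and 73.5, 72.8 and 66.1 cpm at D1+ TGF-β. Levels were 70.8, 71.1 and 72.6 cpm at D20 and 57.1, 59.8 and 60.2 cpm at D20+ TGF-β. It was higher with TGF-β at D1 (log2 0.35, SE 0.07, adjusted p 0.00285) and lower at D20 (−0.28, SE 0.07, adjusted p 0.00652). The D1 call was lost without D1+ TGF-β replicate 1 or 2, and the D20 call without any D20 or D20+ TGF-β replicate or D1+ TGF-β replicate 1 or 2, where its adjusted p reached 0.0382. Over time it fell with TGF-β by −0.26 (SE 0.07, adjusted p 0.00746), a call lost without the same 8 libraries (adjusted p 0.0120 to 0.0406), and rose without it by 0.37 (SE 0.07, adjusted p 7.68e-04). The response difference, −0.63 (SE 0.10, adjusted p 8.28e-04), passed in 20 of 20 alternatives.

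A second group of 15 genes, recalled from a published signature of YAP and TAZ targets and written with earlier results of these data known, was tested in full. With TGF-β, 3 rose (IGFBP3, DOCK5 and PTPN14) and FOXF2 fell at D1, where 13.4% of all genes passed. At D20, where 27.5% passed, 3 rose (IGFBP3, FJX1 and DOCK5) and 7 fell (F3, CRIM1, FOXF2, CCDC80, ARHGEF17, TGFB2 and RBMS3). Over time with TGF-β, FOXF2 rose and IGFBP3, CRIM1 and NT5E fell, where 34.8% passed. Over time without it, 6 rose (F3, CRIM1, FOXF2, CCDC80, TGFB2 and RBMS3) and 3 fell (FJX1, NT5E and DOCK5), where 36.4% passed. For the response difference 6 were lower at D20 (F3, IGFBP3, CRIM1, CCDC80, TGFB2 and RBMS3) and FJX1 was higher, where 10.4% of all genes passed. MYOF, ASAP1 and GADD45A passed nowhere, and the counts with 1 library left out were 2 to 6 at D1, 7 to 11 at D20 and 6 to 8 for the response difference. The fall of RBMS3 at D20 was lost in 8 of 12 such fits (adjusted p up to 0.0485) and its response difference in 2. Calls were also lost for CCDC80 at D20 in 4, ARHGEF17 at D20 in 1, DOCK5 and PTPN14 at D1 in 2 and 3, and NT5E over time with and without TGF-β in 2 and 3.

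IGFBP3, which binds insulin-like growth factors outside the cell, had the largest change. It had 26.6, 12.9 and 26.7 cpm at D1 and 341, 433 and 301 cpm at D1+ TGF-β. Levels were 31.8, 31.3 and 33.9 cpm at D20 and 166, 191 and 179 cpm at D20+ TGF-β. It rose by log2 4.04 (SE 0.22, adjusted p 6.32e-08) at D1 and 2.46 (SE 0.21, adjusted p 9.49e-07) at D20. TGFB2, the gene of a TGF-β ligand, had 9.62, 19.7 and 7.75 cpm at D1 and 14.1, 15.7 and 17.7 cpm at D1+ TGF-β. Levels were 67.5, 74.4 and 73.6 cpm at D20 and 19.4, 22.0 and 19.0 cpm at D20+ TGF-β. It was highest in the untreated D20 flasks, above D1 by log2 2.51 (SE 0.23, adjusted p 1.33e-06), and TGF-β lowered it at D20 by −1.84 (SE 0.22, adjusted p 2.22e-05).

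F3, tissue factor, the trigger of coagulation, was likewise highest in the untreated D20 flasks. It had 447, 451 and 509 cpm at D1 and 509.6, 533 and 509 cpm at D1+ TGF-β. Levels were 1072, 1061 and 1085 cpm at D20 and 440.0, 452 and 256 cpm at D20+ TGF-β. TGF-β lowered it at D20 by −1.49 (SE 0.16, adjusted p 8.35e-06), and the response difference was −1.63 (SE 0.22, adjusted p 2.58e-04). FJX1, a secreted relative of the Drosophila growth regulator four-jointed, went the other way. It had 47.3, 46.0 and 49.8 cpm at D1 and 58.3, 59.5 and 56.6 cpm at D1+ TGF-β. Levels were 17.9, 18.4 and 17.6 cpm at D20 and 53.8, 49.0 and 61.8 cpm at D20+ TGF-β. It fell from D1 to D20 by log2 −1.41 (SE 0.09, adjusted p 9.36e-08) and was higher with TGF-β at D20 by 1.61 (SE 0.09, adjusted p 1.96e-08).

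**Figure D4:**
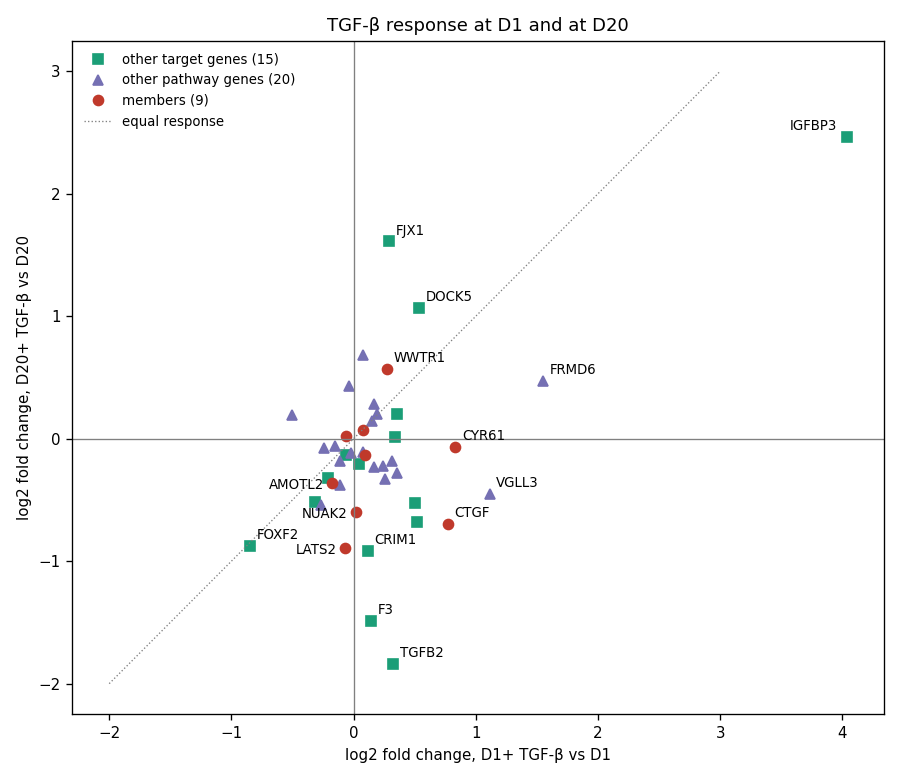
Log2 fold change with TGF-β at D1 (horizontal) against D20 (vertical) for the 9 tested YAP-TEAD genes (circles), 20 other pathway genes (triangles) and 15 other target genes (squares), with the line of equal response dotted. CTGF lies at 0.77 and −0.70, CYR61 at 0.83 and −0.07 and IGFBP3 at 4.04 and 2.46; most points lie below the line.

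By sign alone, the value was positive at D1 and negative at D20 for 4 of the 9 YAP-TEAD genes, 7 of the 20 other pathway genes and 6 of the 15 other target genes, against 17.1% of all genes tested. The response difference was below 0 for 7, 13 and 13 of them, against 47.5% of all genes. These counts include genes that did not pass the test, and no test of the lists was made. The lists were chosen with earlier results of these data known, so their shares are not independent of the data. The counts rest on all 12 libraries, and without D1 replicate 2 the D1 values of LATS2 and YAP1 changed sign.

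As a description over the 12 libraries, the genes whose log2 cpm followed each member most closely were RDX (Pearson r 0.958) and DLC1 (0.948) for CTGF, COPA (0.968) and ARFGAP1 (0.961) for CYR61, and CRK (0.973) and EIF4EBP2 (0.962) for LATS2. For AMOTL2 they were NAV1 (0.963) and COL18A1 (0.960), for AXL AATF (0.956) and CCM2 (0.956), and for NUAK2 FMOD (0.924) and S1PR3 (0.922). For WWTR1 they were SPICE1 (0.928) and TET3 (0.927), for YAP1 FAM102B (0.939) and EFR3A (0.879), and for TEAD1 LOC653631 (0.890) and APAF1 (0.861). The 12 points share 4 groups and the same libraries, and each pair is the best of 9490 genes.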

How the data were processed

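RNA from 12 flasks, 4 groups of 3, was sequenced from directional libraries in 4 lanes each. Per the study's methods and the submitters' processing notes, Trimmomatic was used by the authors for trimming and Rsubread for alignment to hg19. The counting program and its use of strand are not given in the sources used here, so reads of a gene and an overlapping antisense gene may not be separated. The authors deposited raw counts per gene and lane, and log2 cpm values from voom for 9412 genes, those with at least 10 cpm in 24 of 48 lane columns, which was checked against the counts. The deposited log2 table supplied the gene symbols, and RefSeq that of ANKRD1.

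The 4 lanes of a library were summed, since lanes are not replicates. Of 20434 genes with a count, 9490 with at least 10 cpm in 6 of 12 libraries were tested with edgeR 4.0.16 (R 4.3.3), by a quasi-likelihood fit over all 12 libraries with TMM factors, Benjamini-Hochberg adjustment over these genes and a threshold of 0.01. This replaced the limma fit of the study's methods, which was run as an alternative with limma 3.58.1 on libraries, on lanes and on the deposited log2 values. Other alternatives were DESeq2 1.42.0, other scalings, no gene filter, only the 6 libraries compared, the replicate number as a block and each library left out. A prior count of 2 was used for the log2 cpm behind correlations and library deviations, and not for the fold changes. The fits were tested on simulated counts. Total counts were 8674488 to 18286197 per library, and the common biological coefficient of variation was 9.35%.

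The members and gene lists were chosen with earlier results of these data known. The named genes were the 10 members, the listed pathway and target genes that passed in any comparison, with the 4 of each list that had the largest change described in full, and for each member the 2 genes of highest correlation. TEAD3 was described in full after its values were seen. Gene positions came from GENCODE on GRCh37 and promoter windows from RefSeq on GRCh38.p14.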

Additional observations from a re-analysis of the deposited data

Results flagged for a closer look

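The response to TGF-β differed between the days by the interaction term of the edgeR fit for 3 of the 9 YAP-TEAD genes tested. For CTGF the response at D20 minus that at D1 was −1.47 on the log2 scale, with treated flasks above untreated ones at D1 and below them at D20, and −1.90 without D1 replicate 2. For CYR61 it was −0.90, from a rise at D1 and a value of −0.07 at D20. For LATS2 it was −0.82, from −0.07 at D1 and a fall to −0.89 at D20. Passage and reseeding differ between the days as well, and cell density may, so they cannot be told apart from the length of treatment. The groups of 3 were too small for a test of single outlying flasks.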

How the results depend on the processing

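Over 936 alternative values of the 9 tested YAP-TEAD genes, 836 kept their direction and side of the threshold, 30 newly passed, 37 no longer passed and 33 changed sign. With all libraries the members called were 1, 3, 4, 2 and 3 (TGF-β at D1, TGF-β at D20, time with TGF-β, time without, response difference). At D1 they were 2 with limma-voom on libraries, with limma run on log2 values as deposited and with the replicate block, 3 without the gene filter (ANKRD1 included), 4 with limma-voom on 48 lanes and 1 to 3 with a library left out. At D20 they were 6 on lanes, 5 without the filter and 1 to 5 with a library left out. Over time with TGF-β they were 6 on lanes, 5 without the filter, 3 without a composition factor and 2 to 4 with a library left out. Without TGF-β they were 3 on lanes, 1 without a composition factor, without the filter or with only the 6 libraries, and 0 to 3 with a library left out. For the response difference they were 5 on lanes, 4 without the filter and 2 to 3 with a library left out. All genes called numbered 1271, 2609, 3307, 3457 and 985 in the same order, and on lanes, which count each flask 4 times, 3895, 5154, 5724, 5895 and 3703. At D1 they were 802 with only the 6 libraries and 619 to 1875 with a library left out, and for the response difference 549 to 1731.

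The values that changed sign all lay near 0 and none passed the test. Without a composition factor, NUAK2 was −0.043 at D1, CYR61 −0.033 and TEAD1 −0.0075 over time without TGF-β, and AXL 0.10 for the response difference (where the median of all genes moved from 0.02 to 0.13). Without the gene filter, YAP1 was −0.027 and WWTR1 −0.017 over time with TGF-β, CYR61 −0.040, AMOTL2 −0.0014 and TEAD1 −0.014 without it, and AXL 0.029 for the response difference, against 0.0023 with DESeq2 and 0.0022 with RLE factors. With a library left out, the D1 value ranged from −0.18 to 0.096 for LATS2, −0.16 to 0.091 for YAP1, −0.016 to 0.15 for AXL and −0.026 to 0.075 for NUAK2, and the D20 value of AXL from −0.026 to 0.14. Over time with TGF-β the range was −0.0053 to 0.054 for YAP1 and −0.034 to 0.11 for WWTR1. Without TGF-β it was −0.060 to 0.11 for CYR61, −0.010 to 0.11 for AMOTL2, −0.17 to 0.060 for YAP1 and −0.44 to 0.017 for WWTR1. For the response difference it was −0.049 to 0.18 for YAP1 and −0.10 to 0.085 for AXL. The cause of these changes was not tested.

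The replicate numbers are shared across groups in the labels. Of 18 pairs of same-numbered libraries, 4 had deviations correlated above 0.1 (range −0.22 to 0.32), and 1 of 12 libraries was closest to its own number. No pairing by number was seen, but with 3 flasks per group this check cannot exclude a shared batch. With the replicate block, CTGF passed at D1 (0.82, adjusted p 0.00947) and WWTR1 at D20 (0.56, adjusted p 0.00672). ANKRD1 rests on 9 to 27 reads per D1 library.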
